A study of Mus musculus with 16 samples.

Results

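Malat1, Neat1, Miat and Snhg11 are 4 genes of long noncoding RNAs, grouped here as RNAs of the nucleus. They were taken by symbol from a deposited table of 55359 genes, all 4 were found, and all 4 were among the 17569 genes that passed a filter on low values. The values come from RNA-seq of hippocampus of C57BL/6JNarl mice, with 16 libraries in 4 groups of 4: non-stressed males, non-stressed females, chronic-stressed males and chronic-stressed females. No allele, transgene or drug is named in the labels, and the age of the mice and the stress procedure are not given in the sources used here. Each library is labelled with a pool size, which was 3 in all libraries but those of chronic-stressed males, where it was 2, 2, 1 and 2 for libraries 1 to 4. Nothing in the labels says whether pools shared animals or were prepared on separate days, so the p-values measure the spread between these libraries.

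Long noncoding RNAs of the nucleus act as RNA and are not translated. Malat1 gathers in nuclear speckles, bodies rich in splicing factors, and its 3′ end is made by RNase P, which cuts off a small tRNA-like RNA; the remaining end is protected by a triple helix rather than a poly(A) tail. Neat1 is the scaffold on which paraspeckles assemble, and its long isoform ends in a similar element, while a short isoform from the same start is polyadenylated. Miat, also called Gomafu, is enriched in neurons and carries repeats that resemble the intron branch point and bind the splicing factor Sf1. Snhg11 is a spliced host gene of small nucleolar RNAs with high expression in neurons.

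The deposited coordinates are on GRCm39. Malat1 (ENSMUSG00000092341) lies on chromosome 19 from 5845718 to 5852700, and Neat1 (ENSMUSG00000092274) on the same chromosome from 5874736 to 5895506, both on the minus strand and 22.04 kb apart. Miat (ENSMUSG00000097767) lies on chromosome 5 from 112361094 to 112377261 on the minus strand, and Snhg11 (ENSMUSG00000044349) on chromosome 2 from 158217558 to 158228071 on the plus strand. Their exonic lengths in the table are 6983 bases for Malat1, 20771 for Neat1, 9293 for Miat and 8527 for Snhg11. GENCODE M21 types Malat1, Neat1 and Miat as lincRNA and Snhg11 as protein coding, while RefSeq types all 4 as lncRNA.

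The 3′ elements of Malat1 and Neat1 are shown because they set these RNAs apart from polyadenylated transcripts; sequences are from GENCODE M21 transcripts, 5′ to 3′, written as DNA. Capitals mark the U-rich motifs and the A-rich tract that pair in the triple helix. The Malat1 stretch is bases 6606 to 6691 of transcript Malat1-201, whose annotation runs on past it to base 6983. The Neat1 stretch is bases 20682 to 20771, the last of transcript Neat1-201.
Malat1: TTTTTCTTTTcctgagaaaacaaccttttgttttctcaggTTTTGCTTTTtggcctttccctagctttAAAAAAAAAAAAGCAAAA
Neat1: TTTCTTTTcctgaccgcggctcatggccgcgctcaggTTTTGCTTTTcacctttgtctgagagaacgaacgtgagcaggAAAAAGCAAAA
The second U-rich run of the Malat1 element and of the Neat1 element are the same letters, and both elements end in GCAAAA.

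Miat is shown by the stretches of transcript Miat-205 in which its repeats lie closest together, bases 4932 to 5082 and 5514 to 5639. Capitals mark ACTAAC, or TACTAAC where a T comes before it, searched on the transcript strand only, so each TACTAAC also counts as an ACTAAC.
Miat bases 4932 to 5082: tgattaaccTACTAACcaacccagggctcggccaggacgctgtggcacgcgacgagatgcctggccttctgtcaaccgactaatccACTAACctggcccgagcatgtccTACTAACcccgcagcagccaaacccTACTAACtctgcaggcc
Miat bases 5514 to 5639: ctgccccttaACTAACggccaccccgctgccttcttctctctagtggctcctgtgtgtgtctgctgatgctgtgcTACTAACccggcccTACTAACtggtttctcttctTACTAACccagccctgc
The whole transcript of 9163 bases holds 11 ACTAAC, of which 6 are TACTAAC. Among 1642 annotated transcripts of at least 8 kb, 69.4% hold ACTAAC at least once, 0.792% (13 transcripts of 9 genes) hold it at least 11 times, and 0.183% (3 transcripts of 2 genes) hold TACTAAC at least 6 times. Malat1-201 holds no ACTAAC, Neat1-201 holds 4 and Snhg11-201 holds 1.

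The promoter of Malat1, the member that was higher in stressed libraries of both sexes, is shown from RefSeq on GRCm38.p6 at chr19:5802623-5802922 on the minus strand, 300 bases around the start of the gene. Capitals mark TGACG, the core of the cAMP response element (CRE), on either strand.
Malat1 promoter: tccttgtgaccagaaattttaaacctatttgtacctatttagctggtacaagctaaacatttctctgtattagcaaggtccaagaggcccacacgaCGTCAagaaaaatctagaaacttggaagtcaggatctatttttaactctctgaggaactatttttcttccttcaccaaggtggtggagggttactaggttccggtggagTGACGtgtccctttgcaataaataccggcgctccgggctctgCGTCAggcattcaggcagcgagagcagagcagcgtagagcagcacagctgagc
It holds 3 matches to TGACG, a run found at least once on either strand in 20.8% of 32851 RefSeq promoters of the same length. The share of promoters with 3 matches or more is not given here. It holds no match to the full CRE TGACGTCA (1.79% of promoters), the E-box CACGTG (7.15%), the full glucocorticoid receptor palindrome (0.00900%) or the heat shock element (0.603%), all searched on both strands; the CRE contains the core. The same window of Miat and of Snhg11 holds none of these 5 motifs, and no window of Neat1 is given here.

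Totals ran from 15.2 to 32.5 M counts per library (M, 1000000), and were higher in stressed libraries (18.6 to 32.5 M in males, 18.2 to 28.6 M in females) than in most non-stressed ones (15.2 to 19.5 M and 15.8 to 20.1 M). Genes with more than 6 kb of exon took 43.3 to 44.2% of counts in stressed males and 43.5 to 44.0% in stressed females, against 35.6 to 37.6% in non-stressed males and 31.8 to 40.1% in non-stressed females. Non-stressed female libraries 1 and 4 stood lowest, at 33.8 and 31.8%. All 4 members are longer than 6 kb, so this share moved with the groups that are compared. The mitochondrial gene mt-Nd6, which is coded on the strand opposite to mt-Nd5, was at 1097 to 2334 CPM (counts per M) in non-stressed and 71.2 to 107 CPM in stressed libraries, while mt-Nd5 was at 2025 to 6232 and 5372 to 6207 CPM. The part of these differences in the members' results was tested only for gene length, below. Markers of hippocampal principal neurons were all detected, with summed levels of 218 to 269 FPKM, and no marker of any of the 10 cell type lists was at 0 in a whole group. Markers of choroid plexus, which lies beside the hippocampus, summed to 1168 to 6492 FPKM with overlapping ranges in all 4 groups. Summed markers of oligodendrocyte precursors (46.6 to 65.7 FPKM without stress, 41.7 to 44.6 with it) and of endothelium (17.8 to 29.3 and 13.3 to 16.8 FPKM) were lower in all stressed libraries. Those of microglia were lower in all stressed males (75.3 to 79.8 FPKM against 92.5 to 104), and overlapped in females (77.03 to 107 against 84.6 to 117). Those of neurons were at 661 to 831 and 798 to 864 FPKM, with overlap. The part of these markers in the members' results was not tested. In bulk tissue, fewer cells of a type and less RNA per cell cannot be told apart.

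Levels are given as the deposited FPKM, that is counts per kilobase of exon and M counts. On this scale Snhg11 stood highest, between 255 and 318 FPKM, and by raw count it ranked 14th to 21st of all genes in every library. Malat1 (52.4 to 151 FPKM) and Miat (46.0 to 114 FPKM) came next, with ranges that overlapped in every group, so their order was not resolved. Neat1 was lowest, at 8.94 to 13.7 FPKM, below every value of the others. FPKM of Neat1 is divided by the whole 20771 bases, although its annotated short isoform has 3004.

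**Figure D1:**
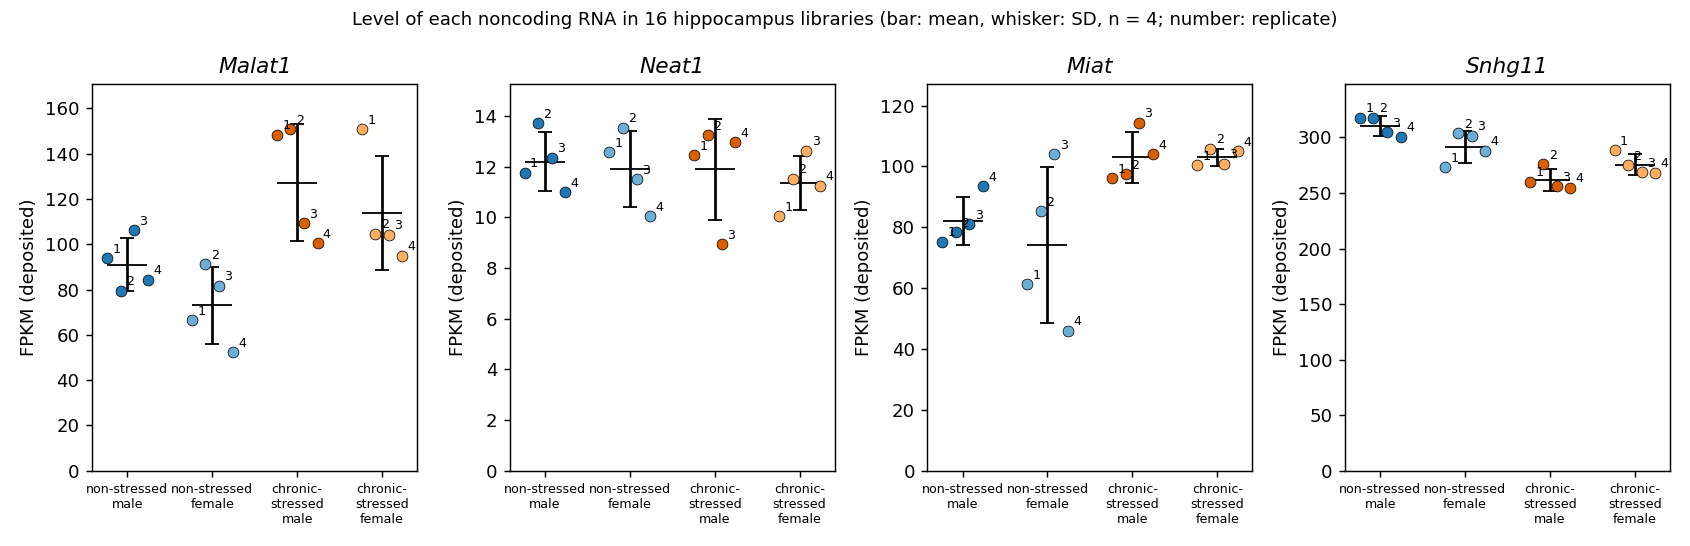
FPKM (vertical axes, from 0) of each noncoding RNA in each of the 16 libraries, by group, with replicate numbers, the mean as a bar and the SD as a whisker (n = 4). Stressed female libraries of Malat1 lie above all non-stressed female ones, Snhg11 of stressed males lies below all non-stressed males, and Neat1 overlaps in all groups.

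In the stress comparisons, 2 of the 4 members passed in males, Malat1 higher and Snhg11 lower, and 2 passed in females, Malat1 and Miat, both higher. A gene passed at an adjusted p under 0.05 with edgeR's quasi-likelihood test over all 17569 genes. The background was high: 39.7% of tested genes passed in males (18.5% higher, 21.2% lower) and 49.3% in females (22.1% higher, 27.3% lower). A count of 2 in 4 is near these shares and is not in itself a result about the members. Whether groups overlapped is given below for single genes. The share of all tested genes without overlap is not given here, so a lack of overlap does not by itself set a gene apart. The median log2 fold change of the 4 members was 0.16 in males and 0.20 in females, against a median of -0.03 over all tested genes in each sex. All 4 are longer than 6 kb, and tested genes of 6 to 10 kb had medians of 0.20 in males and 0.22 in females. For genes over 10 kb these were 0.40 and 0.42, so the members as a group did not stand above genes of their length.

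Malat1, the speckle RNA, was higher in stressed libraries of both sexes. In non-stressed males it was at 93.8, 79.4, 106 and 84.4 FPKM in libraries 1 to 4, and in stressed males at 148, 151, 109 and 101 FPKM. Stressed male libraries 1 and 2 stood far above all non-stressed males, library 3 was just above the highest of them, and library 4 fell within their range. The group means were 90.9 ± 11.8 and 127 ± 26.0 FPKM (SD, n = 4), a log2 fold change of 0.49 ± 0.18 (SE, adjusted p = 0.0338). In females the values were 66.6, 91.2, 81.7 and 52.4 FPKM without stress and 151, 105, 104 and 94.9 FPKM with it. All 4 stressed female libraries lay above all 4 non-stressed ones, and library 1 of the stressed group stood apart from its other 3. The means were 73.0 ± 17.1 and 114 ± 25.2 FPKM, a log2 fold change of 0.64 ± 0.18 (adjusted p = 0.00691).

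The 3 stressed libraries with Malat1 near 150 FPKM, male 1 and 2 and female 1, were also those with the lowest totals among the stressed ones (18.6, 19.2 and 18.2 M counts); the part of depth was not tested. The male call rested on single libraries: without non-stressed male library 1, 2 or 4, or stressed male library 1 or 2, the adjusted p was 0.0599, 0.0943, 0.0757, 0.0992 and 0.101. The female call was lost without non-stressed female libraries 1 and 4 together, at 0.42 ± 0.17 (adjusted p = 0.0673).

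Miat, the neuronal RNA with branch-point-like repeats, was also higher in stressed libraries, and its call changed with the libraries that were fitted. It was at 75.3, 78.4, 80.9 and 93.5 FPKM in non-stressed males and at 96.1, 97.4, 114 and 104 FPKM in stressed males. These groups did not overlap, yet the difference of 0.34 ± 0.17 on the log2 scale did not pass (adjusted p = 0.117). In non-stressed females it was at 61.3, 85.3, 104 and 46.0 FPKM, the widest spread of any member in any group, with a coefficient of variation of 34.6%. In stressed females it was at 100.3, 106, 101 and 105 FPKM, the narrowest spread of any member, at 2.75%. Non-stressed library 3 lay within the stressed range and libraries 1 and 4 lay far below it. The female difference of 0.47 ± 0.17 passed (adjusted p = 0.0278), but was 0.15 ± 0.10 without non-stressed libraries 1 and 4 (adjusted p = 0.292). Leaving out library 1 or 4 alone gave adjusted p of 0.0916 and 0.0612, and leaving out stressed female library 2 or 4 gave 0.0555 and 0.0567. The male difference passed at 0.37 ± 0.08 (adjusted p = 0.00115) without those libraries, since all groups share an estimate of the spread; it also passed without non-stressed female library 3 or 4 alone (adjusted p = 0.0352 and 0.0246).

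Neat1, the paraspeckle scaffold, showed no difference that passed in either sex. It was at 11.8, 13.7, 12.4 and 10.98 FPKM in non-stressed males and at 12.4, 13.2, 8.94 and 12.96 FPKM in stressed males. Only stressed male library 3 fell outside the non-stressed range. In females it was at 12.6, 13.5, 11.5 and 10.03 FPKM without stress and at 10.04, 11.5, 12.6 and 11.2 FPKM with it, and the groups overlapped throughout. The log2 fold changes were -0.03 ± 0.11 in males (adjusted p = 0.867) and -0.07 ± 0.11 in females (adjusted p = 0.631).

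Snhg11, the snoRNA host gene, was lower in stressed males. It was at 318, 318, 305 and 301 FPKM in non-stressed males and at 260.2, 276, 256 and 255 FPKM in stressed males, with no overlap between the groups. The means were 310.3 ± 8.95 and 262 ± 9.64 FPKM, a log2 fold change of -0.24 ± 0.06 (adjusted p = 0.00806), or 1.18-fold lower. On TPM, which shifts the median of all genes to 0.19 in males, the change was -0.01 (adjusted p = 0.955), and with no filter on low values it was -0.20 (adjusted p = 0.0976). In females it was at 273, 304, 301 and 288 FPKM without stress and at 289, 275, 269 and 268 FPKM with it. The female groups overlapped, and the difference of -0.09 ± 0.06 did not pass (adjusted p = 0.274). The female and the male stress effects on Snhg11 differed by 0.15 ± 0.09, which did not pass either (adjusted p = 1).

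**Figure D2:**
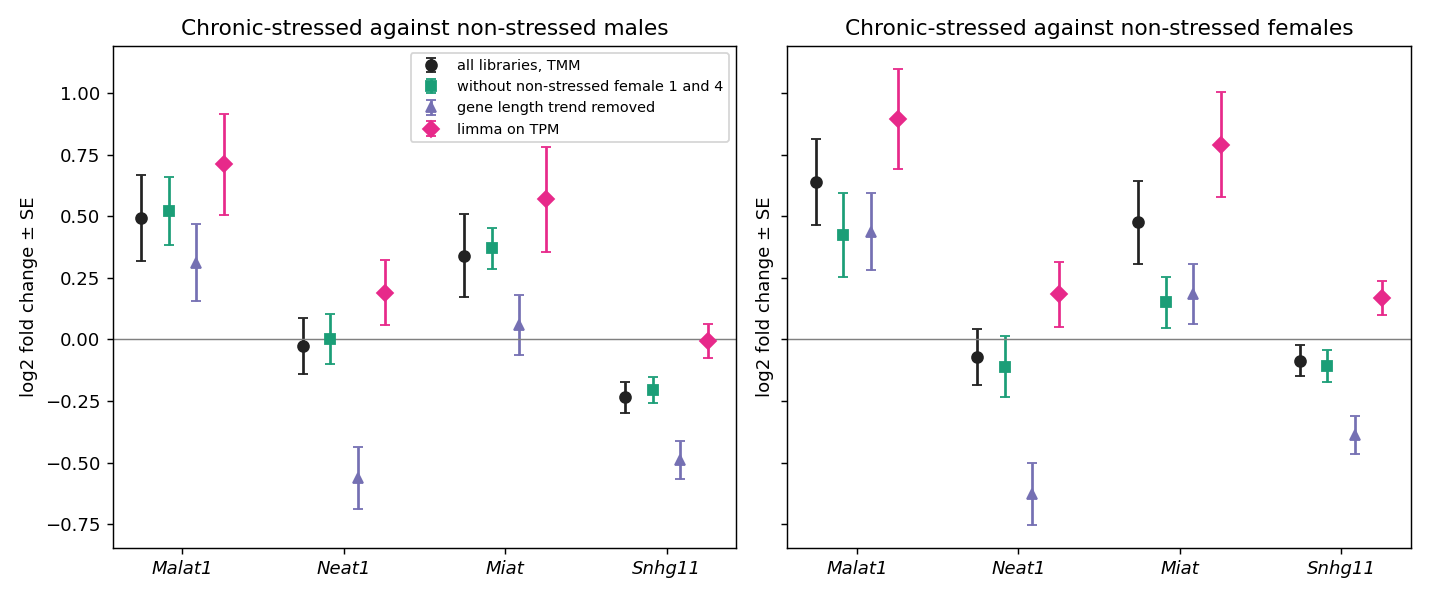
Log2 fold change of stressed over non-stressed libraries (vertical axis, ± SE) for each RNA in males and females, from all libraries and from 3 alternatives. Malat1 stays above 0 in all of them, Neat1 is at -0.03 in males and -0.07 in females from all libraries, 0.19 and 0.18 on TPM and -0.56 and -0.63 with the length trend removed, and Snhg11 lies below 0 except on TPM in females.

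Gene length went with the stress difference across the whole table. The median log2 fold change rose from -0.37 in males and -0.42 in females for genes under 1 kb of exon to 0.20 and 0.22 for the 3118 genes of 6 to 10 kb, and to 0.40 and 0.42 for the 1385 genes over 10 kb. Against the genes of 6 to 10 kb, Malat1 lay above the upper quartile in both sexes (0.39 and 0.43), Miat lay below it in males and above it in females, and Snhg11 lay below the lower quartile (0.00 and -0.01). Neat1, over 10 kb long, lay below the lower quartile of its class (0.17 and 0.16). That class takes Neat1 at its full 20771 bases. For genes of 3 to 6 kb, the class of its short isoform of 3004 bases, the medians were -0.01 in males and -0.004 in females.

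**Figure D3:**
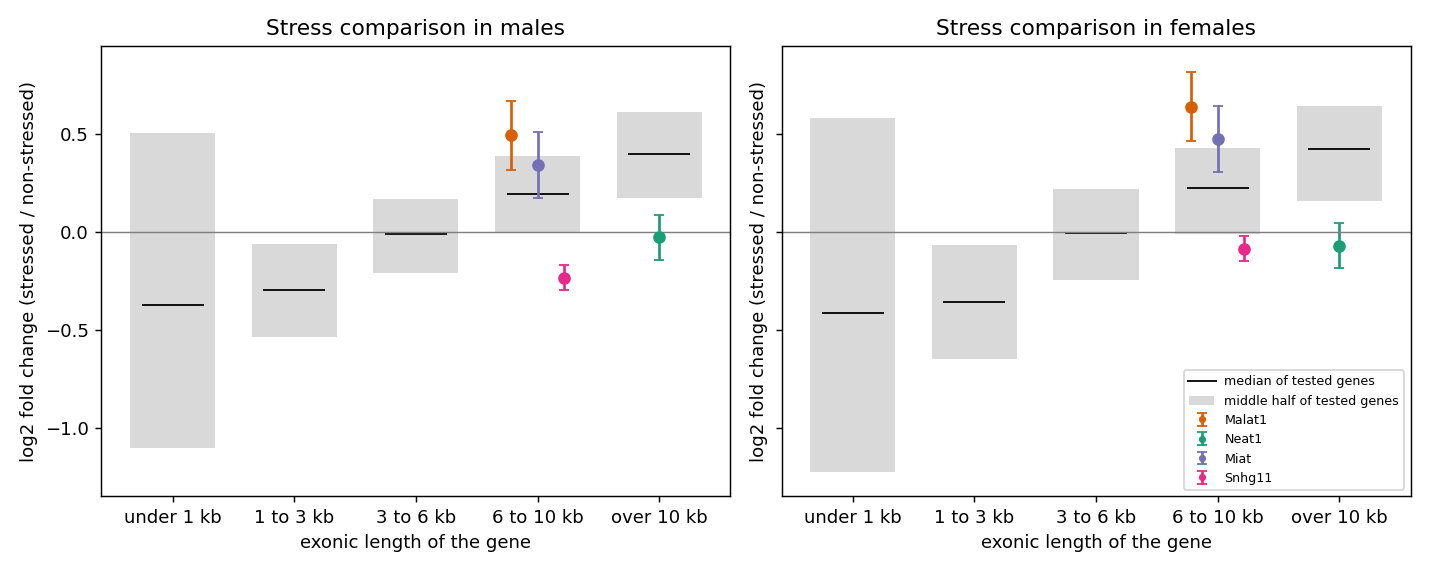
Log2 fold change of stressed over non-stressed libraries (vertical axis) by exonic length class; grey boxes span the quartiles of tested genes, black lines are medians, and points are the 4 RNAs ± SE. Medians rise with length, from -0.37 to 0.40 in males, and Neat1 and Snhg11 lie below the boxes of their classes in both sexes.

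With a smooth trend on exonic length removed from every library, the call of each of the 4 members changed in at least 1 sex. Malat1 was at 0.31 ± 0.16 in males (adjusted p = 0.146) and at 0.44 ± 0.16 in females (adjusted p = 0.0354). Miat was at 0.06 ± 0.12 (adjusted p = 0.760) and 0.19 ± 0.12 (adjusted p = 0.243). Neat1 was lower at -0.56 ± 0.13 (adjusted p = 0.00298) and -0.63 ± 0.13 (adjusted p = 0.00117), and Snhg11 at -0.49 ± 0.08 (adjusted p = 0.000141) and -0.39 ± 0.08 (adjusted p = 0.000949). Of the tested genes, 104 have 20 kb of exon or more, so few lie near the length of Neat1. The trend takes Neat1 at 20771 bases, and the share of its reads from the short isoform was not tested.

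**Figure D4:**
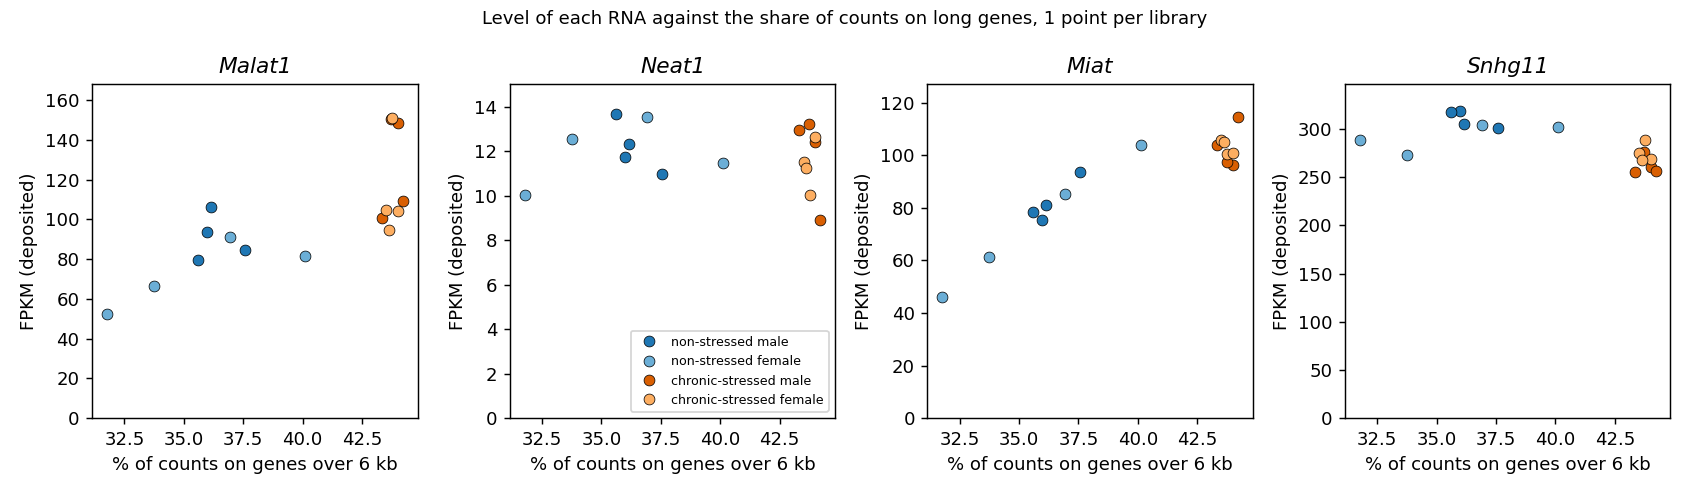
FPKM of each RNA (vertical axes, from 0) against the percentage of a library's counts on genes with more than 6 kb of exon, 1 point per library, coloured by group. Among non-stressed females, library 4, at 31.8%, has the lowest Miat and Malat1 (46.0 and 52.4 FPKM), and library 3, at 40.1%, has 104 and 81.7 FPKM, with Snhg11 at 288 and 301 FPKM.

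Ratios between members cancel the library total. The Malat1 to Snhg11 ratio was 0.250 to 0.349 in non-stressed and 0.395 to 0.570 in stressed males, and 0.182 to 0.300 and 0.354 to 0.523 in females, without overlap in either sex. The log2 difference was 0.72 in males and 0.73 in females. The Miat to Snhg11 ratio was 0.237 to 0.311 and 0.353 to 0.447 in males, and 0.160 to 0.345 and 0.347 to 0.392 in females, again without overlap, with log2 differences of 0.58 and 0.62. Each of these 4 comparisons gave p = 0.0286 in a two-sided exact permutation test, the smallest that 4 against 4 libraries allow, and 0.0686 after Benjamini-Hochberg adjustment over the 12 ratio tests, so none passed. The Malat1 to Neat1 ratio was 5.22 to 7.11 in non-stressed and 8.25 to 15.02 in stressed females, without overlap (exact permutation p = 0.0286, adjusted 0.0686), and overlapped in males (p = 0.0857, adjusted 0.147). The Malat1 to Miat ratio differed by 0.14 in males and 0.10 in females on the log2 scale (exact permutation p = 0.571 and 0.657).

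No member passed between the sexes within a condition. The background was 0.0455% of tested genes passing in non-stressed and 0.0398% in stressed mice. The female minus male difference of Malat1 was -0.31 ± 0.18 on the log2 scale without stress (adjusted p = 0.651) and -0.17 ± 0.17 with it (adjusted p = 1). That of Miat was -0.14 ± 0.17 and -0.01 ± 0.17, that of Neat1 -0.03 ± 0.11 and -0.07 ± 0.11, and that of Snhg11 -0.08 ± 0.06 and 0.07 ± 0.06. No member showed a stress effect that differed between the sexes (adjusted p = 1 for all 4), and 0 of 17569 genes passed for this interaction with edgeR, with 373 at an unadjusted p under 0.05; limma with a pseudocount of 0.1 and limma on TPM each called 1. Malat1's own interaction was 0.15 ± 0.25.

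Small RNAs and antisense genes share bases with these genes. Gm25129, a snoRNA of 133 bases inside Snhg11 on the same strand, had 11, 11, 16 and 15 counts in non-stressed males and 48, 46, 90 and 62 in stressed males. In females it had 0, 13, 24 and 1 counts without stress and 47, 58, 70 and 52 with it. All 8 stressed libraries lay above all 8 non-stressed ones, and the share of all tested genes that do so is not given here. The log2 fold change was 1.78 ± 0.44 in males (adjusted p = 0.00470) and 2.23 ± 0.47 in females (adjusted p = 0.00113), where Snhg11 itself was at -0.24 and -0.09. The male call was lost with limma on TPM (adjusted p = 0.0800) and with a pseudocount of 0.1 on FPKM (adjusted p = 0.158), and the female change was 1.37 without non-stressed libraries 1 and 4 and 1.86 to 3.20 with single libraries left out, highest without non-stressed library 3. Gm25187, another snoRNA inside Snhg11, had 0 counts in every library. Reads in bases that Snhg11 and a snoRNA share could have been given to either or neither, since the counting rule is not given in the sources used here.

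The strand setting of counting is not given either, and 6.49% of Malat1's exonic bases (453) overlap exons of Gm37376 on the opposite strand, and 24.3% of Miat's (2260) overlap those of Gm26953. Gm37376 had 0 counts in all 8 non-stressed libraries. In stressed libraries it had 3, 4, 5 and 3 in males and 8, 0, 1 and 3 in females. It did not pass the filter on low values and was not tested. Against a floor of 3 counts over the group, the lowest fold was 3.70 in males and 3.09 in females. Such a bound was worked out only for a gene with 0 counts without stress and more than 3 with it, so its direction followed from that choice. With 1 stressed library left out at a time, an alternative chosen after seeing the data, the male bound was 3.42 to 3.91, and the female bound was 1.28 without library 1, which held 8 of the 12 counts. Gm26953 had 33 and 22 counts summed over non-stressed males and females and 50 and 30 over stressed ones. If reads were spread evenly, losing all reads in those bases would change a level by -0.10 for Malat1 and -0.40 for Miat on the log2 scale; the part of strand in the members' results was not tested. Neat1 and Snhg11 have no such overlap. The other genes inside Malat1, Neat1 and Miat are unnamed, on the same strand, and had at most 1 count in any library.

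**Figure D5:**
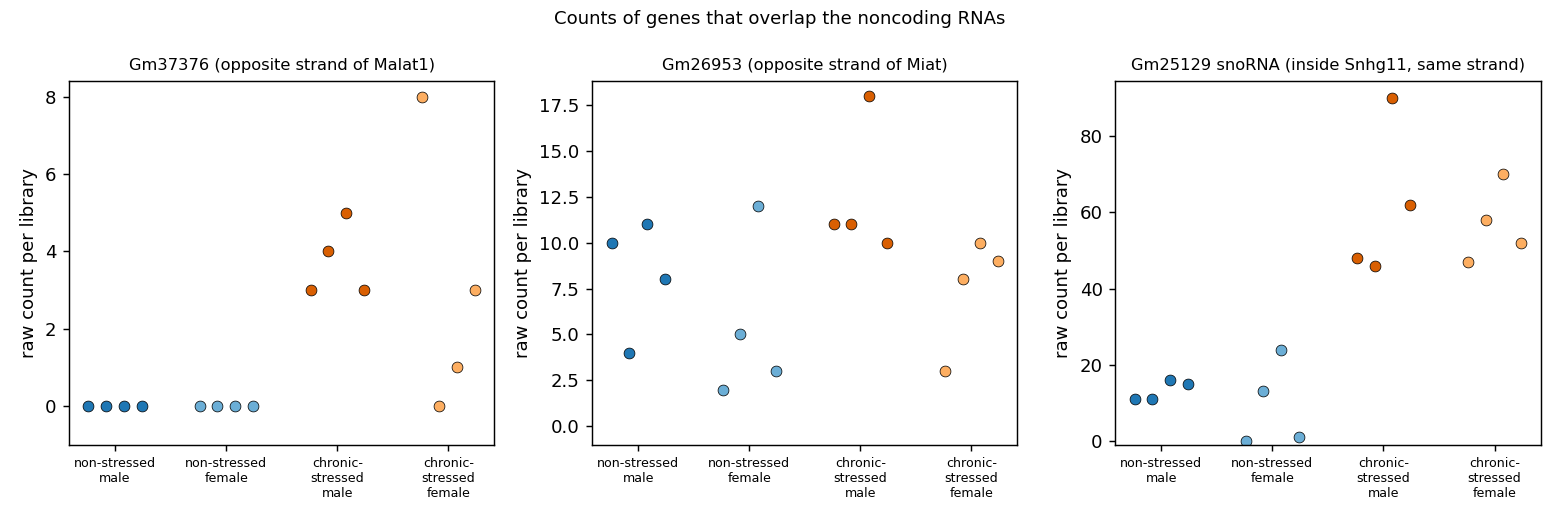
Raw counts per library (vertical axis) of Gm37376 and Gm26953, on the strand opposite to Malat1 and Miat, and of the snoRNA Gm25129 inside Snhg11, by group. Gm25129 is at 46 or more in all stressed libraries and at 24 or fewer in all non-stressed ones.

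Neighbouring genes did not share the members' calls as a block. Frmd8, at 4.22 kb from Neat1, did not pass in either sex, at -0.08 ± 0.09 in males (adjusted p = 0.509) and -0.10 ± 0.09 in females (adjusted p = 0.361). Of 12 tested genes within 100 kb of Malat1, 0 passed in males and 1 in females, which was lower. These counts stand against backgrounds of 39.7% of tested genes passing in males and 49.3% in females. Of 14 tested near Neat1, 1 was higher and 1 lower in males, and 1 higher and 2 lower in females. The higher one in each sex was Malat1 itself. Near Snhg11, Ralgapb at 23.7 kb rose in both sexes, by 0.49 ± 0.13 (adjusted p = 0.00545) and 0.63 ± 0.13 (adjusted p = 0.000738), with the male call lost when the length trend was removed (0.10, adjusted p = 0.367). Of 5 tested genes within 100 kb of Snhg11, 3 rose in males and 2 in females. Ralgapb and the snoRNA Gm25129 inside Snhg11 are both among these in each sex. Snhg17, at 14.1 kb on the other strand, did not pass (adjusted p = 0.906 and 0.837). Near Miat, 2 of 4 tested genes within 100 kb were lower in each sex.

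Genes of the bodies and pathways around the 4 RNAs were read as lists. Of 35 list genes that could be named, 15 overlap a gene on the opposite strand, and 9 more lie within 5 kb of one. Among those named below, Hnrnph3, Dazap1, Matr3, Son, Pop4, Elac2, Celf3, Sf1, Srsf1, Snhg6, Pvt1, Pantr1, H1f0, H2ax and Smg1 overlap one, and their values are uncertain where reads were counted without strand. Proteins of the body that Neat1 builds changed in both directions. Of 14 paraspeckle proteins, 3 were higher and 5 lower in each sex, against the same background, with medians of -0.02 in males and -0.11 in females. Sfpq, one of the core paraspeckle proteins that bind Neat1, rose by 0.81 ± 0.11 in males (adjusted p = 3.16e-05) and 0.39 ± 0.11 in females (adjusted p = 0.00740). Nono, its partner, was lower in males at -0.16 (adjusted p = 0.0329) and at -0.12 in females (adjusted p = 0.0925). On TPM it was at 0.07 and 0.13, below the medians of all genes there, 0.19 and 0.22. The male call was lost under 10 other alternatives of 29, among them no filter (adjusted p = 0.330) and the length trend removed (adjusted p = 0.0645). Pspc1, the third of these DBHS proteins, did not pass (adjusted p = 0.480 and 0.231). Taf15 was at -0.50 and -0.70, Hnrnph3 at -0.45 and -0.53, and the nuclear matrix protein Matr3 at -0.41 and -0.55, all lower in both sexes. The male call of Matr3 was lost on TPM (-0.18, adjusted p = 0.150) and without non-stressed male library 1 (adjusted p = 0.0538).

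Of 18 nuclear speckle proteins, the neighbours of Malat1 in the nucleus, 5 were higher and 4 lower in males and 6 higher and 8 lower in females, with medians of -0.09 and -0.23. Son, a large scaffold of speckles, rose by 0.60 ± 0.07 in males (adjusted p = 6.17e-06) and 0.56 ± 0.07 in females (adjusted p = 1.07e-05), and has 14907 bases of exon. The splicing factor Sf3b1, with 11370 bases, rose by 0.49 and 0.42. With the length trend removed neither passed: Son was at 0.16 (adjusted p = 0.132) and 0.09 (adjusted p = 0.372), and Sf3b1 at 0.13 (adjusted p = 0.370) and 0.02 (adjusted p = 0.910). The SR protein Srsf5 was lower at -0.67 ± 0.09 (adjusted p = 2.71e-05) and -0.79 ± 0.09 (adjusted p = 5.74e-06), and U2af2, which helps choose the 3′ splice site, at -0.28 and -0.31. On TPM U2af2 did not pass, at -0.05 and -0.06.

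Of 7 genes for Malat1's 3′ end processing and triple helix binding, 0 rose and 2 fell in each sex, with medians of -0.19 and -0.17. This share of 28.6% lay below the 39.7% of all tested genes that passed in males and 49.3% in females. The RNase P subunits Rpp30 (-0.74 and -0.87) and Pop4 (-0.54 and -0.59) fell, while Elac2, the tRNA 3′ endonuclease (adjusted p = 0.789 and 0.0841), and Mettl16, a triple helix binding protein (adjusted p = 0.784 and 0.200), did not pass. The male call of Pop4 was lost with the length trend removed (-0.33, adjusted p = 0.0664). Of the 3 tested proteins that bind Miat, 0% passed in males and 66.7% in females, against the same 39.7% and 49.3% of all tested genes. In females Celf3 was higher at 0.54 ± 0.20 (adjusted p = 0.0374) and Srsf1 lower at -0.30 ± 0.10 (adjusted p = 0.0224). Without non-stressed female libraries 1 and 4 these were 0.17 (adjusted p = 0.210) and -0.07 (adjusted p = 0.562). In all, the call of Celf3 was lost under 9 of 29 alternatives, each stressed female library left out among them, and that of Srsf1 under 7. Sf1 did not pass in either sex (adjusted p = 0.786 and 0.335). Qki was not analysed here.

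Most other snoRNA host genes were lower. Of 18 tested, 1 was higher and 12 lower in males and 0 higher and 12 lower in females, with medians of -0.52 and -0.75 against -0.03 over all tested genes. The shares passing were 72.2% and 66.7%, against 39.7% and 49.3% of all tested genes. Snhg8 was at -1.50 ± 0.21 (adjusted p = 4.71e-05) and -1.69 ± 0.21 (adjusted p = 1.37e-05), Snhg20 at -1.12 and -1.34, and Snhg6 at -1.08 and -1.14, the latter -0.44 without non-stressed female libraries 1 and 4. Snhg12 was at -0.57 and -0.69, and Snhg4 at -0.64 and -0.95. Snhg11 (-0.24 and -0.09) is longer than each of these 5, which have 853 to 4666 bases of exon. Tested genes under 1 kb had medians of -0.37 and -0.42, and those of 1 to 3 kb had -0.30 and -0.36. For those of 3 to 6 kb the medians were -0.01 and -0.004. The part of length in the median of the list was not tested. With the length trend removed, Snhg11 was at -0.49 and -0.39 and the male Snhg12 at -0.30. Snhg8, Snhg20, Snhg6 and Snhg4 kept their calls in both sexes there. The difference between Snhg11 and these 5 genes was not itself tested. Of 18 other brain lncRNAs, 3 were higher and 2 lower in males and 5 higher and 1 lower in females. These shares of 27.8% and 33.3% lay below those of all tested genes. Meg3, an imprinted RNA of 18089 bases, was higher at 0.42 and 0.48, but at -0.08 and -0.02 with the length trend removed. Oip5os1 was higher at 0.37 and 0.39, and Pantr1 lower at -0.62 and -0.84. With the length trend removed, Oip5os1 (0.12 and 0.10) and the male Snhg12 (-0.30) did not pass, and the male Pantr1 did not pass on TPM (-0.38) or without non-stressed male library 1 (adjusted p = 0.0525).

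Genes whose RNA usually lacks a poly(A) tail were read beside Malat1, since it lacks one too. Of 8 tested, 0 were higher, and 4 in males and 5 in females were lower, with medians of -0.54 and -0.82. The list genes named by the rule were histone genes: H1f2 at -0.74 and -1.04, H2bc4 at -0.53 and -0.96, H1f0 at -0.63 and -0.70, and H2ax at -0.40 and -0.59. These have 1156 to 2055 bases of exon, and tested genes of 1 to 3 kb had medians of -0.30 in males and -0.36 in females. H1f0 is known to make polyadenylated RNA and H2ax to make both kinds, so not every gene of this list lacks a tail. With the length trend removed, the male calls of H1f2 (-0.33) and H2bc4 (-0.07) and the female call of H2ax (-0.14) were lost, and H2ax in males was at 0.03. On TPM the male H2bc4 (-0.29) and H2ax (-0.17) did not pass, and the male H2ax call was also lost without non-stressed library 4 or stressed library 1 or 2 (adjusted p = 0.0768, 0.0518 and 0.0664). Whether poly(A) selection or ribosomal RNA depletion was used is not given in the sources used here. Of 7 factors of nonsense-mediated decay, which degrades many snoRNA host transcripts, 1 was higher and 1 lower in males and 3 higher and 1 lower in females, with medians of 0.17 and 0.16. Of these factors 28.6% passed in males and 57.1% in females, against the same 39.7% and 49.3%. Smg1, the kinase of this decay pathway, was at 0.91 and 0.95, and Upf3a was lower at -0.52 and -0.65.

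Genes most like each member over the 16 libraries were found among 13977 genes with a mean of at least 1 FPKM, by the root mean square difference of their log2 CPM after each gene's mean was taken out. For Malat1 these were the pseudogenes 6820431F20Rik (0.17) and Gm10925 (0.17) and Lingo2 (0.18), against a median of 0.45 for all genes. Both pseudogenes may share reads with a near-identical copy, so their levels are uncertain. Miat was closer to its nearest genes, Pip4k2b (0.06), Epb41l1 (0.06) and Sdc3 (0.07), against a median of 0.40. The nearest to Neat1 were Stk39 (0.06), Slc39a12 (0.07) and Pls1 (0.09), against 0.28, and to Snhg11 Fhl1 (0.05), Vps26a (0.06) and Uri1 (0.06), against 0.25. Among the members themselves, the smallest difference was between Neat1 and Snhg11 (0.18), followed by Malat1 and Miat (0.29), and the largest between Malat1 and Snhg11 (0.44). The last lay close to the median of 0.45 of all genes against Malat1. Such a difference is small wherever both genes vary little, so it does not show that they rise and fall together.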

How the data were processed

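The authors deposited a single table of 55359 genes with counts and FPKM for 16 libraries. Per the labels' protocols, 1 ug of RNA extracted with 1-bromo-3-chloropropane went into each library (VAHTS Universal V8 kit). GRCm39, HISAT2 2.0.1 and HTSeq 0.6.1 are listed in the submitters' processing notes. The annotation release, the strand setting and the RNA selection are not given in the sources used here. The deposited counts are whole numbers, not normalized. The deposited FPKM are relative to exonic length and library total; recalculation here gave the same values to within 0.005. No pair of replicates was close enough to be a repeated deposit (chi-square per degree of freedom 2.96 or more).

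The gene test was edgeR 4.0.16 (R 4.3.3) on the deposited counts, by quasi-likelihood with TMM scaling and 4 group means over all 16 libraries. It covered 17569 genes, those reaching 0.5 FPKM in 4 or more libraries, with Benjamini-Hochberg adjustment over all of them and a threshold of 0.05. A ± after a log2 fold change is its SE, and after a level the SD of 4 libraries. Alternatives were DESeq2 1.42.0, limma 3.58.1 on log2 FPKM (pseudocounts 0.1, 0.5 and 1) and on TPM rescaled here from FPKM, library totals or upper quartiles as scaling, no filter or 1 FPKM in 8 libraries, the compared groups alone, the omission of non-stressed female libraries 1 and 4, a natural spline (4 df) on exonic length as an offset, the replicate number as a block, and omission of single libraries. Ratios of members used two-sided exact permutation tests. The scripts were tested on simulated data. Gene types, exon overlaps and transcript sequences came from GENCODE M21 (GRCm38) by Ensembl identifier, and promoters from RefSeq GRCm38.p6.

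The members and lists were chosen with earlier results of these data known. Of each list, the up to 4 passing genes with the smallest p in each sex could be named, of which some are given here; Sfpq, Nono, Pspc1, Elac2, Mettl16, Celf3 and Sf1, genes inside a member, the nearest tested genes and the 3 most alike genes were named whatever their values. Some genes that this rule allows are not reported here and were left out of the lists' counts. Plots used matplotlib 3.10.9 (Python 3.11.15).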

Additional observations from a re-analysis of the deposited data

How the results depend on the processing

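Malat1 stayed higher in stressed libraries under every alternative run, from 0.31 to 0.71 in males and 0.42 to 0.89 in females on the log2 scale, but its male call was lost with upper-quartile scaling (0.43), with limma on FPKM at pseudocounts of 0.5, 0.1 and 1 (each 0.47) and with the length trend removed (0.31), and its female call without non-stressed female libraries 1 and 4 (0.42). Miat passed in males on TPM (0.57), with the compared groups alone (0.37) and without those libraries (0.37). In females it was lost with the compared groups alone (0.48), without those libraries (0.15) and with the length trend removed (0.19). Snhg11 in males was lost with no filter (-0.20) and on TPM (-0.0055); in females it was 0.17 on TPM and passed at -0.39 with the length trend removed. Neat1 turned above 0 in males with no filter (0.013), with the compared groups alone (0.0031) and without those libraries (0.0030), and on TPM in both sexes (0.19 and 0.18), and passed with the length trend removed (-0.56 and -0.63). TPM moved the median of all genes to 0.19 in males and 0.22 in females, and relative to that shift Neat1 stood near 0 and Snhg11 below it. The causes of these changes were not tested.

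Sex differences and interactions, none of which passed, changed sign as follows. Miat in stressed mice was 0.00034 without TMM, 0.00062 with upper-quartile scaling, 0.00086 on TPM, 0.0034 with limma on FPKM at each pseudocount, and 0.0089 with the length trend removed. In non-stressed mice Neat1 was 0.047 and Miat 0.22 without non-stressed female libraries 1 and 4, and Neat1 0.0036 with the length trend removed. The interactions of Malat1 and Miat were -0.098 and -0.22 without those libraries.

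Counts of genes past the threshold moved as follows: 15 with DESeq2 and 16 without those libraries, from 8, between the sexes of non-stressed mice; 11 with DESeq2 and 11 with the compared groups alone, from 7, in stressed mice; 1 in the interaction with limma at a pseudocount of 0.1 and 1 on TPM, from 0; and 5594 without those libraries, from 8668, in the female stress comparison.

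With each library left out in turn, the stress effect in males ran from 0.41 to 0.59 for Malat1, -0.075 to 0.081 for Neat1, 0.28 to 0.41 for Miat and -0.25 to -0.21 for Snhg11, and in females from 0.47 to 0.76, -0.13 to -0.0058, 0.31 to 0.72 and -0.12 to -0.030. The sex difference in non-stressed mice ran from -0.093 to 0.035 for Neat1 and -0.36 to 0.022 for Miat, that of Miat in stressed mice from -0.044 to 0.057, and the interaction from -0.023 to 0.27 for Malat1, -0.15 to 0.022 for Neat1 and -0.030 to 0.35 for Miat. Among other named genes, the male effect ran from -0.092 to 0.021 for Elac2, -0.0045 to 0.055 for Mettl16, -0.10 to 0.029 for Srsf1 and -0.021 to 0.058 for Snhg17, and the female effect of Snhg17 from -0.13 to 0.077.

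Other named genes also changed sign. On TPM, where the median of all genes was 0.19 in males and 0.22 in females, these were, in males, Nono 0.068, Elac2 0.20, Sf1 0.18, Srsf1 0.18 and Frmd8 0.15. In females they were Dazap1 0.048, Nono 0.13, Pspc1 0.13, Elac2 0.085, Mettl16 0.14, Frmd8 0.15 and Snhg17 0.22. With the length trend removed they were, in males, Pspc1 -0.021, Elac2 0.087, Mettl16 -0.39, Meg3 -0.078, H2ax 0.034, E130006D01Rik 0.054 and Snhg17 -0.17, and in females Meg3 -0.017 and Pvt1 -0.041. With upper-quartile scaling Mettl16 was -0.036 and Snhg17 -0.045 in males. With no filter Elac2 was 0.0089 in males and Snhg17 0.016 in females. Without non-stressed female libraries 1 and 4, Pspc1 was 0.063 and Sf1 -0.095 in females.

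Replicate numbers are shared by the groups but did not pair the libraries: same-numbered libraries had correlations of -0.23 to 0.17 between their deviations from the group means, with 4 of 24 over 0.1, and 4 of 16 libraries were most like one with their own number. A fit with the replicate number as a block changed no call of a member; Malat1 was at 0.47 in males (adjusted p = 0.0243) and 0.64 in females, and 6929 and 8592 genes passed.

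Depth limits Gm37376, at 8 counts or fewer, and Gm26953, at 18 or fewer.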
